A study of Mus musculus with 18 samples.

Results

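Somatostatin-high (Sst-high) neurons were those with at least 100 FPKM of Sst, and 4 of the 17 Dbx1 preBötC neurons with expression values met that limit. FPKM counts fragments per length of the gene and per depth of the library, so it is a level per length. The other 13 neurons were Sst-low. Each sample was the cytoplasm of a single neuron from Dbx1; Ai148 mice aged P0 to P2, in which a Dbx1-driven Cre recombinase switched on the calcium indicator GCaMP6f, bred from an Ai148 line of C57Bl/6J background and a Dbx1-Cre line of mixed C57Bl/6J; CD1 background. All neurons, in both groups, carried this indicator, had been picked by eye for rhythmic fluorescence in brainstem slices and had been recorded in whole-cell mode before their contents were drawn into the pipette (Patch-Seq). The recordings divided them into 7 Type-1 neurons, 9 Type-2 neurons and 1 neuron of Unknown type, a division that rests on intrinsic membrane properties and the onset of inspiratory drive. The study used fewer slices than neurons, so some neurons shared a slice and an animal, and the labels do not give the pairs. The tests treat all neurons as independent, and their p-values measure the spread between these neurons only.

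The preBötzinger complex (preBötC) of the medulla generates the inspiratory rhythm, and its rhythm-generating neurons derive from Dbx1-expressing progenitors. Somatostatin is a peptide transmitter that is cut from a larger precursor, stored in dense-core granules and bound by G protein-coupled receptors that mostly lower excitability. In the preBötC its presence is a classical marker of part of the excitatory population, often linked to shaping the inspiratory burst, alongside the substance P receptor NK1R. Sst transcription is a textbook target of cyclic AMP signalling through CREB, which binds the cyclic AMP response element (CRE).

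Sst lies on the minus strand at chr16:23889573-23890958 of GRCm38 (mm10) in the GENCODE annotation. The full palindromic CRE, TGACGTCA, which reads the same on either strand, was present in the RefSeq promoter window of Sst (250 bases before to 50 after the start, GRCm38.p6), 48 bases before the RefSeq start. That start lies downstream of the GENCODE one, so the element falls inside the GENCODE gene span, as it does for Scg2. The element was also present for Sstr2 (2 of 5 genes of the somatostatin system, Sst included), for Cartpt and Ucn (2 of 18 other neuropeptides), for Btg2 and Dusp1 (2 of 19 activity-regulated genes) and for 3 of 14 genes of peptide processing and the dense-core granule with a promoter entry, namely Scg2 and Chgb, granins of the granule, and Pcsk1, a convertase that cuts peptide precursors. Of all 32851 promoters in the table, 588 (1.79%) held it. The 30-base windows around the element for 3 of these genes show how it sits in each promoter, with the element in capitals and the flanks in lower case.
Sst (chr16:23890874-23890903, minus strand): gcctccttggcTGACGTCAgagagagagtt
Scg2 (chr1:79440076-79440105, minus strand): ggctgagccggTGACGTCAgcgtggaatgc
Pcsk1 (chr13:75089768-75089797, plus strand): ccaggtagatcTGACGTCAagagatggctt
The flanks differed while the element was identical. A match describes these letters and is no evidence of binding.

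Sst spanned the whole range of expression levels among these neurons. In the Sst-high group it stood at 12698 FPKM in Neuron 14 (Type-2, P0), 4904 FPKM in Neuron 4 (Type-1, P2), 661 FPKM in Neuron 9 (Type-2, P2) and 114 FPKM in Neuron 13 (Type-2, P0). In the 13 Sst-low neurons the lowest, median and highest values were 0, 13.3 and 81.2 FPKM. Because Sst chose the groups, these values are a description and were not tested. Neuron 13, just inside the limit, and Neuron 11, just outside it at 81.2 FPKM, lay much nearer to each other than Neuron 13 lay to Neuron 9. Sst-low was also not one level: 6 neurons sat between 57.6 and 81.2 FPKM, Neuron 8 and Neuron 3 at 13.3 and 9.24 FPKM, Neurons 12 and 16 held 1 fragment each and Neurons 1, 17 and 18 held none. A count of 0 allowed up to 0.753, 0.302 and 0.449 FPKM in those 3 neurons (3 fragments, counting error only).

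**Figure D1:**
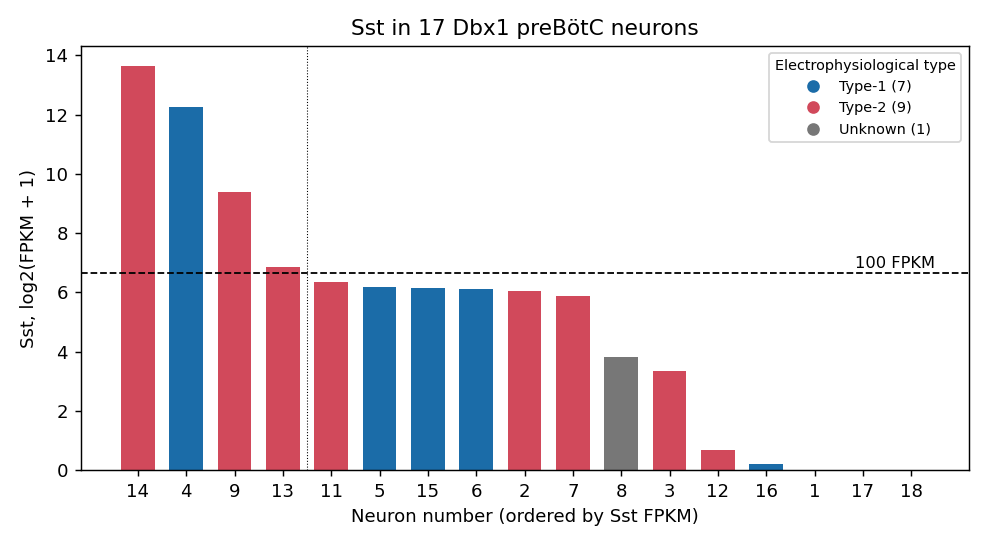
Sst as log2(FPKM + 1) in each of the 17 neurons, ordered by level, with bars coloured by electrophysiological type and the 100 FPKM limit dashed. Neurons 14, 4 and 9 stand clear of the limit, while Neuron 13 (114 FPKM) stands next to the 6 Sst-low neurons at 57.6 to 81.2 FPKM.

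Both electrophysiological types were found among Sst-high neurons. Sst-high neurons made up 1 of 7 Type-1 neurons (14.3%, exact 95% interval 0.361 to 57.9%) and 3 of 9 Type-2 neurons (33.3%, interval 7.49 to 70.1%), a difference of 19.0 percentage points (two-sided Fisher's exact test, p = 0.585). The second-highest Sst level of all came from a Type-1 neuron, and of the 3 neurons without Sst fragments 2 were Type-1. At a limit of 1000 FPKM each type contributed 1 neuron, and the difference changed sign to -3.17 points (Fisher's exact p = 1).

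Depth and library quality were compared between the groups before any gene. The Sst-high libraries held 3838187 to 10994752 counted fragments and the Sst-low libraries 2280477 to 13762335. The number of genes found (at least 1 fragment) averaged 12647 ± 2086 (SD, n = 4) against 13354 ± 2003 (SD, n = 13), and the mitochondrial share averaged 4.67 ± 2.74% against 5.69 ± 3.02%. No difference passed the test for 5 measures (fragments, genes found, mitochondrial share, share of the top 100 genes, postnatal day) (two-sided exact permutation tests, unadjusted p of 0.30 to 1, lowest adjusted p = 0.925). Neuron 14, with the most Sst, had the fewest genes found of all neurons, 10434.

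EdgeR called no gene between the groups, while DESeq2, the tool of the study's own type comparison, and limma-voom called some. The threshold was that of the type comparison, an adjusted p under 0.01 with a log2 fold change (L2FC) beyond 1.5 in either direction. The edgeR quasi-likelihood fit took in every gene that any neuron held a fragment of, 32627 of 55367 in the table, Sst left out. It called 0 of them (0.0%), and the lowest adjusted p was 0.0609. At an unadjusted p under 0.05 it gave 1896 genes with higher values in Sst-high neurons (5.81%) and 1590 with lower values (4.87%). The near balance depended on the filter. Of 16631 genes with a fragment in 5 or more neurons, 210 were higher and 864 lower at that p. Of 12256 genes with 10 fragments in 5 or more neurons, 28 were higher and 397 lower. These unadjusted p-values ran too small in the check of the fit, so the shares are not read against the nominal rate. A rank order from the fit of all 32627 genes leans on genes seen in few neurons. Of 1170 genes with an adjusted p under 0.1, 1148 were higher and 22 lower in Sst-high neurons. Of these 1170, 659 were found in a single neuron, each time a Sst-high one, and 44 were found in at least 6 neurons. The fit also centred low, with a median L2FC of -0.65 over all genes, whereas the median difference in mean log2(FPKM + 1) was -0.02. DESeq2 with its default settings called 376 genes (2.41% of 15577 with an adjusted p), 16 higher and 360 lower in Sst-high neurons. Limma-voom with quality weights called 5 genes (0.0153%), all lower in Sst-high neurons.

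Single genes were therefore also compared by the difference in mean log2(FPKM + 1), Sst-high minus Sst-low, tested by two-sided exact permutation over the 2380 possible choices of 4 neurons among 17. This test gave a p under 0.05 for 527 genes with higher values (1.62%) and 148 with lower values (0.454%), and no adjusted p was below 1. Of these, 274 higher and 0 lower genes were found in 5 or fewer neurons, where only higher values can reach such a p, and the other genes divide into 253 higher and 148 lower. The smallest p it can give is 0.00042, which 3 genes reached, and that value cannot survive adjustment over 32627 genes. All differences below are on this scale unless an L2FC is named, and all exact p-values are unadjusted. The choice of limit matters to them: of 19 genes below with an exact p under 0.05 whose alternatives were run, 15 no longer had one at a limit of 10 FPKM and 15 at a limit of 1000 FPKM. Dlg1 alone among them kept it at both.

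Separation of the groups was rare. Of all genes tested, 2 had every Sst-high neuron above every Sst-low neuron (0.00613%) and 4 had every Sst-high neuron below (0.0123%). The 2 above were Zfp202, a zinc finger protein, and Arfip2, a protein that binds small GTPases of the ARF and Rac families. The 4 below included Ubn2, A830082K12Rik and Rpl13a. Arfip2 and Rpl13a were named after their values were seen.

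Ubn2, a chromatin protein that works with the HIRA histone chaperone (chr6:38433950-38524825, plus strand), stood at 0.0243, 0.0999, 0.0552 and 0.568 FPKM in Neurons 14, 4, 9 and 13. Among Sst-low neurons it ran from 2.06 over a median of 5.35 to 11.7 FPKM. The Sst-high values rested on 2 to 77 fragments and the Sst-low values on 401 or more. Neuron 13, the Sst-high neuron with the least Sst, lay nearest to the Sst-low range. The difference was -2.40 (exact p = 0.00042; edgeR adjusted p = 0.0609). Within Type-2 neurons alone, 3 against 6, it was -2.33 (exact p = 0.0119, the smallest possible there). Its promoter was the only one among 9 available promoters of the 12 lower genes with the smallest edgeR p to hold the CRE, against 0 of 7 for the 12 higher genes and 1.79% of all promoters.

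A830082K12Rik, an antisense RNA at chr13:78198017-78279391 (plus strand), had no fragment in any of the 4 Sst-high neurons and at least 1 in each of the 13 Sst-low neurons. Its median there was 5.18 FPKM and its highest value 17.6 FPKM, but 2 neurons held 1 fragment each. With 3 fragments per neuron as the floor, its mean was at least 99.5-fold lower in Sst-high neurons (difference -2.41, exact p = 0.00084). It runs opposite to Nr2f1, a transcription factor gene, and the strand setting of the counting is not given in the sources used here, so reads of the overlapping part may come from either gene. Limma-voom called it (adjusted p = 0.000199), together with Enox1, Nkapd1, Lix1l and Fam53a.

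Zfp202 (chr9:40192316-40213604, plus strand) was the counterpart on the other side. It stood at 0.605, 2.21, 2.04 and 23.4 FPKM in Neurons 14, 4, 9 and 13, against a median of 0 and a highest value of 0.25 FPKM in Sst-low neurons. Most of the level came from Neuron 13. The difference was 2.10 (exact p = 0.00042; edgeR L2FC 7.40 ± 1.95 SE, adjusted p = 0.0627), and without Neuron 13 it was 1.28. Arfip2 was more even, at 13.7, 17.2, 22.2 and 17.4 FPKM against 0, 5.15 and 13.1 FPKM (lowest, median, highest; difference 2.07, exact p = 0.0168). It overlaps Timm10b on the opposite strand.

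Rpl13a, which encodes a ribosomal protein, stood at 0.246, 0.184, 0.043 and 0.15 FPKM against 0.289 to 31.4 FPKM in Sst-low neurons (difference -2.15, exact p = 0.0126). Each Sst-high value was 1 or 2 fragments. Its reads are shared with near-identical gene copies and small nucleolar RNAs, and uniquely aligned reads alone were counted, so this gene is uncertain.

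**Figure D2:**
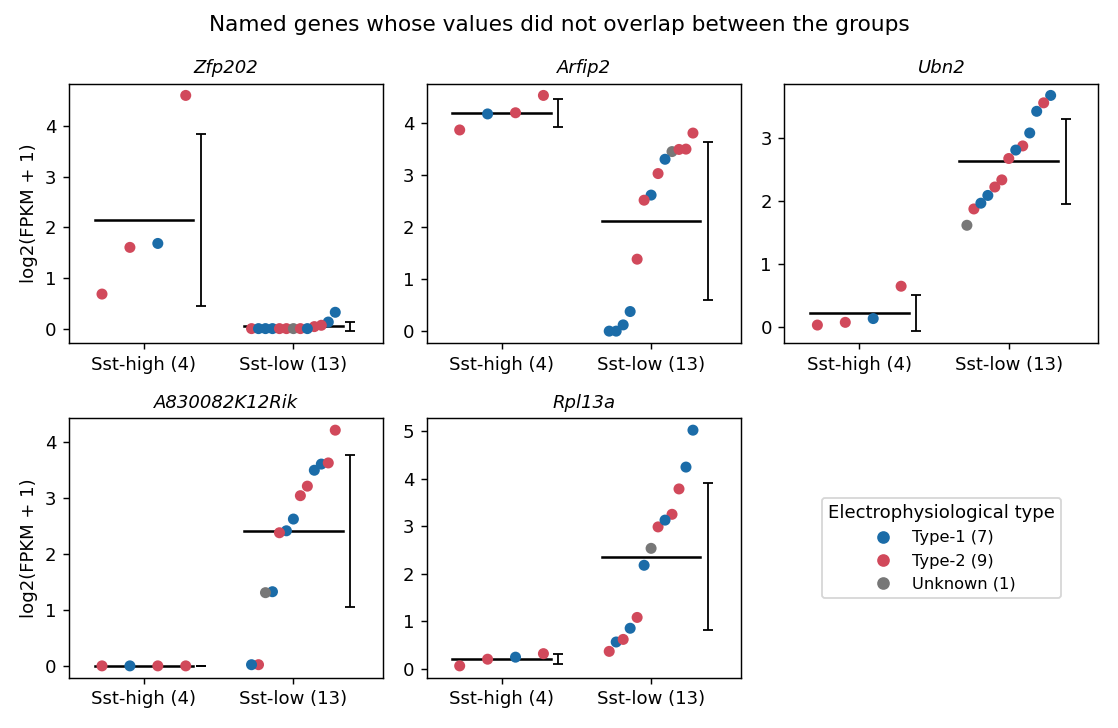
Each panel plots log2(FPKM + 1) of a gene in the 4 Sst-high and 13 Sst-low neurons, with points coloured by type, lines at the group means and error bars of 1 SD. All Sst-high points lie above all Sst-low points for Zfp202 and Arfip2 and below them for Ubn2, A830082K12Rik and Rpl13a.

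Dlg1, a scaffold protein of synapses and cell junctions, came near to separation. It had no fragment in Neurons 4 and 13 and stood at 0.0728 and 0.0762 FPKM in Neurons 14 and 9, while the Sst-low neurons held 0.0728, 8.54 and 17.8 FPKM (lowest, median, highest; difference -2.90, exact p = 0.00084). Other genes among the 12 with the smallest edgeR p on the lower side, taken from genes found in at least 6 neurons, were likewise at or near 0 in Sst-high neurons. Enox1, an oxidase of the cell surface, was found in 0 of 4 Sst-high and 12 of 13 Sst-low neurons (at least 84.3-fold lower, difference -2.14, exact p = 0.0147). Nkapd1 was found in 0 of 4 and 12 of 13 neurons (at least 73.3-fold lower, difference -2.17, exact p = 0.0206). Tctn3, a protein of the primary cilium, was found in 1 of 4 and 10 of 13 neurons (difference -3.01, exact p = 0.0349, or 0.075 without any 1 of the 4 Sst-high neurons). Ctdspl and 2610008E11Rik were at 0 in every Sst-high neuron and found in 11 of 13 Sst-low neurons. The 12 genes at the top of the higher side included Igf2bp2, an mRNA-binding protein, at 15.9 FPKM in Neuron 4 and at most 0.148 FPKM in Sst-low neurons (difference 1.46, exact p = 0.0063). They also included Calcrl, the receptor of calcitonin gene-related peptide, at 10.8 FPKM in Neuron 9 and at most 0.158 FPKM in Sst-low neurons (difference 1.10, exact p = 0.0063), and Gm4825, which was at 71.7 FPKM in Neuron 13 and below 1 FPKM elsewhere (difference 1.66, exact p = 0.0206). Each of these 3 differences was set largely by 1 neuron, being 0.59 for Igf2bp2 without Neuron 4, 0.28 for Calcrl without Neuron 9 and 0.19 for Gm4825 without Neuron 13 (exact p = 0.0875). Without Neuron 4 the exact p of Gm4825 was 0.0714.

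Receptors and a relative of somatostatin were each found in few neurons of either group. Cort, which encodes the related peptide cortistatin, was at 24.6 FPKM in Sst-low Neuron 1 and at most 0.134 FPKM in Sst-high neurons. Sstr1 was at 16.0 FPKM in Neuron 9 and at 0 in the other Sst-high neurons. Sstr2 was at 31.5 FPKM in Neuron 14 and 19.5 FPKM in Sst-low Neuron 6. Sstr3, Sstr4 and Sstr5 had no fragment in any Sst-high neuron and were found in 3, 1 and 1 Sst-low neurons. Of these 6 genes none had an exact p under 0.05, 2 differences were above 0 and 4 below, and the median was -0.09.

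Genes of the peptide-making machinery varied between neurons of both groups, and 1 of 16, Cadps2, had no fragment in any Sst-high neuron. Cpe, the carboxypeptidase that trims peptide precursors, stood at 386, 453, 117 and 75.6 FPKM in Neurons 14, 4, 9 and 13 and at a median of 333 FPKM in Sst-low neurons. Scg2 stood at 143, 98.6, 26.4 and 3.08 FPKM in these neurons, in the order of their Sst, but the Sst-low neurons ran from 0 to 277 FPKM. Pcsk1 was found in Neuron 13 alone of the 4, at 4.17 FPKM. Of the 16 granule genes none had an exact p under 0.05, and their median difference was -0.08.

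Tacr1, which encodes NK1R, was present in only 2 of the 17 neurons, and these were the 2 with the most Sst. It stood at 28.8 FPKM (717 fragments) in Neuron 14 and 12.9 FPKM (429 fragments) in Neuron 4, and no other neuron held a fragment. Against a floor of 3 fragments per neuron the Sst-high mean was at least 155-fold higher than the Sst-low mean (difference 2.17; edgeR adjusted p = 0.0609). Its exact p of 0.0441 is the fixed value for a gene found in just 2 neurons that are both Sst-high, a pattern that 117 genes tested showed, and it entered the test through those neurons alone. Neuron 14 was Type-2 and Neuron 4 Type-1, so it crossed the types. With the limit at 1000 FPKM, which leaves just these 2 neurons as Sst-high, the difference was 4.34, and with the limit at 10 FPKM it was 0.79 (exact p = 0.515). Without Neuron 14 it was 1.26 and without Neuron 4 it was 1.63 (exact p = 0.188 for each), and without any 1 Sst-low neuron the exact p was 0.05. Tacr1 lies at chr6:82402334-82560104 (plus strand). Of 34 preBötC and V0 lineage genes it was the only one with an exact p under 0.05, a share near that over all genes (1.62% higher and 0.454% lower). Reln, a secreted glycoprotein named here as a known preBötC marker, stood at 19.6, 0.0328, 0.00383 and 4.62 FPKM against a Sst-low range of 0 to 28.9 FPKM.

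Of 18 other neuropeptide genes with a fragment, Tac2 was the only one with an exact p under 0.05, and 1 gene in a list of this size, here and in the lists below, is read against the same shares over all genes (1.62% and 0.454%). Tac2, which encodes neurokinin B, was at 17.1 FPKM in Neuron 4 and 0.229 FPKM (2 fragments) in Neuron 13, with no fragment in the other 15 neurons (difference 1.12, exact p = 0.0441, the same fixed value). Without Neuron 4 the difference was 0.10 (exact p = 0.188), without Neuron 13 it was 1.39 (exact p = 0.188), and without any 1 Sst-low neuron the exact p was 0.05. Penk, the precursor of the enkephalins, stood at 14.7 FPKM in Neuron 14, 358 FPKM in Neuron 4 and 0 in Neurons 9 and 13, against 0, 177 and 1634 FPKM in Sst-low neurons (lowest, median, highest; difference -3.13, exact p = 0.114). The value leaned on single neurons: it was -4.92 without Neuron 4 (exact p = 0.0232), -3.65 without Neuron 3 (exact p = 0.0451) and -2.09 without Neuron 9 or Neuron 13 (exact p = 0.343). Penk and Sst were thus found together in 2 of the 4. Calca, the precursor of calcitonin gene-related peptide, was at 33.5 FPKM in Neuron 13 and at 0 in the other Sst-high neurons.

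The 4 Sst-high neurons did not share a transmitter profile. Slc17a6, the vesicular glutamate transporter VGLUT2, stood at 196, 19.9, 9.15 and 0 FPKM in Neurons 14, 4, 9 and 13, and Sst-low neurons ran from 0.45 to 246 FPKM. Neuron 13 was the only neuron of 17 with no Slc17a6 fragment. It instead held genes of inhibitory transmission, with 81.0 FPKM of Gad2 and 8.94 FPKM of Gad1, the enzymes that make GABA, and 39.8 FPKM of Slc6a5, the glycine transporter GLYT2. Neuron 4 held 35.3 FPKM of Gad2 beside its Slc17a6, while Gad2 in Neuron 14 was 0. Slc5a7, the choline transporter of cholinergic neurons, was found in 3 of 4 Sst-high neurons (0.277, 8.76 and 12.3 FPKM in Neurons 14, 4 and 13) and in 2 of 13 Sst-low neurons with 1 fragment each (difference 1.84, exact p = 0.00588; edgeR adjusted p = 0.0609). Without Neuron 13 the difference was 1.21 (exact p = 0.025). The other cholinergic genes of the list had no fragment in any Sst-high neuron: Chat, the enzyme that makes acetylcholine, was found in 1 Sst-low neuron (difference -0.19, exact p = 1) and Slc18a3, its vesicular transporter, in 2 (difference -0.24, exact p = 0.809). Slc5a7 was the only one of 9 transmitter genes with a fragment to have an exact p under 0.05.

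**Figure D3:**
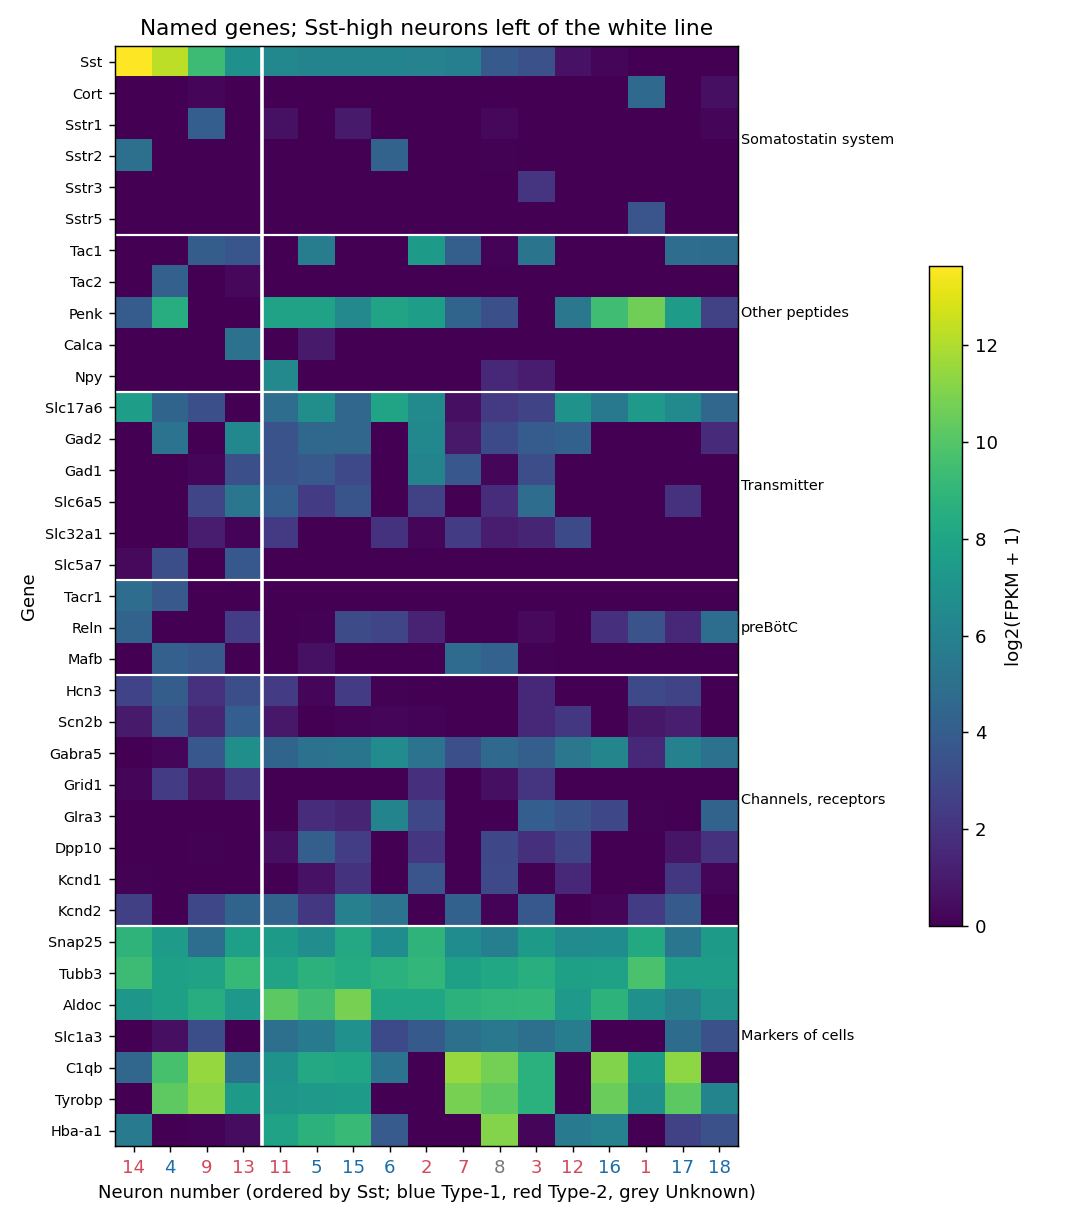
Heat map of log2(FPKM + 1) for named genes (rows, grouped by role) in the 17 neurons (columns, ordered by Sst, numbers coloured by type), with Sst-high neurons left of the white line. Tacr1 is lit in Neurons 14 and 4 alone, Neuron 13 is the only neuron without a Slc17a6 fragment, and the microglia genes C1qb and Tyrobp are bright in neurons of both groups.

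Ion channel and receptor lists held few differences. Hcn3, a subunit of the channels that carry the hyperpolarization-activated current, was found in all 4 Sst-high neurons at 5.77, 15.0, 2.85 and 8.75 FPKM, and in 8 of 13 Sst-low neurons with a median of 0.0512 and a highest value of 7.02 FPKM (difference 2.04, exact p = 0.00756). The groups overlapped. Hcn2 and Hcn4 overlapped as well, with exact p of 0.433 and 0.362. Scn2b, an auxiliary subunit of sodium channels, stood at 0.951, 10.5, 1.62 and 15.8 FPKM against a median of 0.106 and a highest value of 3.67 FPKM (difference 1.94, exact p = 0.0063). Among Type-2 neurons alone the difference was 1.2 for Scn2b (exact p = 0.179) and 1.50 for Hcn3 (exact p = 0.131).

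Gabra5, a subunit of the GABA-A receptor, was at 0, 0.196, 12.0 and 110 FPKM against 1.83, 34.5 and 94.6 FPKM (difference -2.15, exact p = 0.055). Without Neuron 13 the difference was -3.52 (exact p = 0.0054), without Neuron 14 it was -1.25 (exact p = 0.28), without Neuron 4 it was -1.34 (exact p = 0.259), and among Type-2 neurons alone it was -0.49 (exact p = 0.762). Leaving out Sst-low Neuron 1 or Neuron 7 gave an exact p of 0.0291 or 0.0462. Grid1, a delta-type glutamate receptor, was found in 4 of 4 and 3 of 13 neurons (difference 1.02, exact p = 0.0244). Without Neuron 13 the difference was 0.76 (exact p = 0.0768) and without Neuron 4 it was 0.69 (exact p = 0.0786). Permuted within electrophysiological type it was 0.88 (exact p = 0.146), and among Type-2 neurons alone 0.38 (exact p = 0.476). Glra3, a glycine receptor subunit, had no fragment in the 4 Sst-high neurons and was found in 9 of 13 Sst-low neurons at up to 70.4 FPKM (difference -2.09, exact p = 0.0739, or 0.0496 with a pseudocount of 0.1 or on TMM-scaled CPM). Scn2b and Grid1 were named after their values were seen, as the sole members of their lists with an exact p under 0.05.

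Genes of the A-type potassium current, a transient current that delays firing and differs between the electrophysiological types, had no exact p under 0.05 among 12 and a median difference of -0.50. Dpp10, an auxiliary subunit of Kv4 channels, was found in 1 of 4 Sst-high neurons at 0.0422 FPKM and in 10 of 13 Sst-low neurons (difference -1.50, exact p = 0.0588). Its exact p was 0.0408 with a pseudocount of 0.1 or on TMM-scaled CPM, 0.0352 without Sst-low Neuron 1, 6 or 7 and 0.0412 without Sst-low Neuron 16. Kcnd1, a Kv4 pore subunit, was found in 1 of 4 and 8 of 13 neurons, and Kcnd2, another, differed by 0.01. The 36 peptide and monoamine receptor genes gave 14 differences above 0 and 22 below, with no exact p under 0.05. Adcyap1r1, the receptor of the peptide PACAP, stood at 0, 0.973, 15.3 and 1.77 FPKM in Neurons 14, 4, 9 and 13 against a Sst-low median of 11.3 FPKM (difference -1.68, exact p = 0.0592). It was -1.81 when permuted within type (exact p = 0.0425), and it turned to 0.55 with the limit at 10 FPKM (exact p = 0.513). Leaving out 1 neuron moved it between -1.14 without Neuron 14 (exact p = 0.239) and -2.48 without Neuron 9 (exact p = 0.0161). Without Sst-low Neuron 16 or Neuron 17 the exact p was 0.0176 or 0.0258. The Neuropeptide Y receptor gene Npy2r was found in Neuron 14 alone, at 12.5 FPKM. Among 25 activity-regulated genes none passed, and Fos, an immediate early gene, stood at 73.1, 104, 261 and 164 FPKM against a Sst-low median of 172 FPKM.

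Markers of other cells were measured for every list, because a patch pipette can carry along material from around the soma. The neuron markers Snap25 and Tubb3 were found in all 17 neurons. All 10 astrocyte markers had lower means in Sst-high neurons, with a median difference of -1.14, and their summed level was 151 to 522 FPKM there against 109 to 2379 FPKM in Sst-low neurons. Slc1a3, the astrocyte glutamate transporter, stood at 0, 0.456, 8.85 and 0 FPKM against a median of 31.5 FPKM (difference -3.18, exact p = 0.0113). Aldh1l1, a defining astrocyte enzyme, was at 0 in 3 of the 4 and at 0.0604 FPKM in Neuron 9 (difference -2.36, exact p = 0.103). With the limit at 10 FPKM both turned direction, to 0.37 for Slc1a3 (exact p = 0.767) and 1.22 for Aldh1l1 (exact p = 0.325). The summed level of 14 microglia markers was 28.1 to 9340 FPKM in Sst-high and 0.0745 to 11205 FPKM in Sst-low neurons, with 10 differences above 0 and 4 below. C1qb, a complement gene of microglia, was at 823 FPKM in Neuron 4 and 2840 FPKM in Neuron 9 but 21.6 and 30.4 FPKM in Neurons 14 and 13. All 5 blood markers had lower means in Sst-high neurons, and their summed level was 0.496 to 219 FPKM against 0 to 6131 FPKM. The part of these markers in the gene differences above was not tested. Endothelial markers summed to at most 0.102 FPKM in Sst-high neurons and 15.0 FPKM in Sst-low neurons, and the 7 markers of the oligodendrocyte lineage had a median difference of -0.45.

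**Figure D4:**
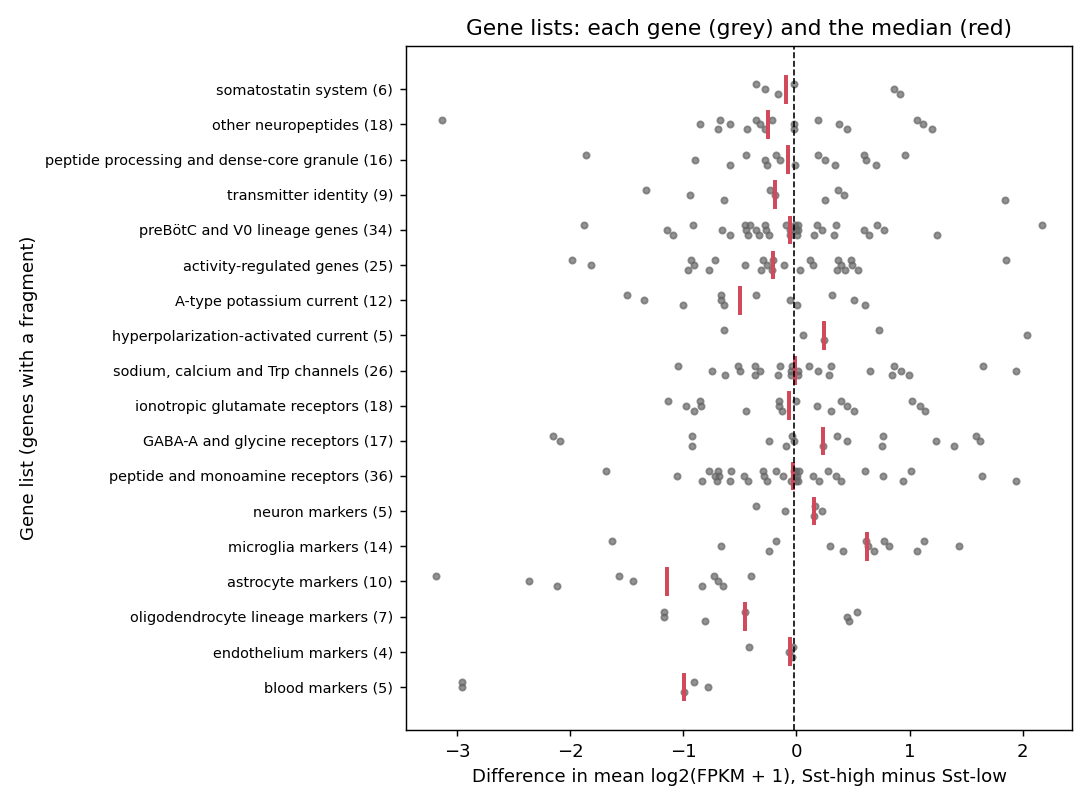
Difference in mean log2(FPKM + 1), Sst-high minus Sst-low, for each gene (grey) of 18 lists, with the list medians in red and the median of all genes tested (-0.02) dashed. The median stands farthest below 0 for the astrocyte (-1.14) and blood (-0.996) markers and farthest above 0 for the microglia markers (0.63), while single genes spread widely in every large list.

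Genes whose levels were most like Sst across the 17 neurons were taken by Spearman's rank correlation among genes found in at least 6 neurons, as a description in which all points share the library and its depth. The highest values were those of Ubxn6, an adaptor of the p97 ATPase (rho = 0.80), Psma3, a proteasome subunit (0.78), Ift27, a protein of transport in cilia (0.78), Manbal, Mrpl57, a mitochondrial ribosomal protein, and Gm28960 (0.77 each), Gm1976 (0.75) and Ndufs7, a subunit of respiratory complex I (0.74). Ubxn6 stood at 4.08, 7.16, 1.42 and 6.26 FPKM in Neurons 14, 4, 9 and 13 and at a median of 1.02 FPKM in Sst-low neurons. As these genes were picked for following Sst, they were not tested between the groups. At the other end were Fbxo5, an inhibitor of the anaphase-promoting complex (-0.83), Saal1 (-0.80) and Slc38a2, an amino acid transporter (-0.78). Fbxo5 and Saal1 were at 0 in all 4 Sst-high neurons.

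Whole transcriptomes were compared pair by pair as a description. Over 15247 genes, with Sst left out, the median Spearman correlation was 0.480 for the 6 pairs of Sst-high neurons, 0.472 for the 52 mixed pairs and 0.445 for the 78 pairs of Sst-low neurons, and the ranges overlapped (0.386 to 0.491, 0.290 to 0.688 and 0.264 to 0.651).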

How the data were processed

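Expression was measured by SMART-seq HT on the contents of single patched neurons. The authors trimmed reads with cutadapt 3.2, checked them with FastQC 0.11.8, aligned them with STAR 2.7.7a to mm10 (GRCm38) and counted uniquely aligned fragments per gene with featureCounts. They deposited fragment counts per gene (unit: counts), FPKM values and gene lengths in bases. The deposited FPKM equalled the counts divided by gene length and column total. Of 18 samples, 17 had values. The 1 other sample was not analysed here. The libraries held 2280477 to 13762335 counted fragments, and counting intervals cover counting error only, since the reads carry no molecular identifiers.

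Neurons were split by Sst FPKM (100 or more, or less). The members and gene lists were chosen with earlier results of these data known. Sst was left out of every test but kept in the library sizes. Counts were tested with edgeR 4.0.16 (TMM, quasi-likelihood, Benjamini-Hochberg adjustment, no filter beyond 1 fragment in 1 neuron) in R 4.3.3, with DESeq2 1.42.0 and limma 3.58.1 as alternatives. FPKM values were compared as log2(FPKM + 1) with exact two-sided permutation tests, adjusted over all genes tested (Python 3.11.15, SciPy 1.17.1). The fits were tested on simulated data, where small unadjusted edgeR p-values came up more often than their nominal rate among unchanged genes. The text names Sst, Cort and the receptors Sstr1 to Sstr5, up to 6 genes per list with an edgeR p under 0.05 plus the 2 of highest mean, 12 genes in each direction by edgeR p (from genes found in 6 or more neurons), and the genes most and least correlated with Sst, with others marked as chosen after their values were seen. Further genes so chosen were Slc1a3, Gad1, Slc6a5, Reln, Lix1l, Fam53a, Hcn2, Hcn4, Kcnd2, Scg2, Chgb, Pcsk1, Cadps2, Chat and Slc18a3. Some genes that the rule selects are not reported here. Gene positions are from GENCODE M21 (GRCm38).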

Additional observations from a re-analysis of the deposited data

Results flagged for a closer look

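A single Sst-high neuron stood apart from the other 3, by its gap to the nearest relative to the range of the group on log2(FPKM + 1), above Dixon's critical value for 4 samples, in 9 of 30 sets of values examined. Chance alone flags about 1 in 20 sets of continuous values, but 9 of 30 cannot be read against that rate. The 30 include genes with no fragment in any Sst-high neuron, such as A830082K12Rik and Enox1, which cannot be flagged. For Dpp10, Aldh1l1 and Tctn3, 3 of the 4 neurons held no fragment and the ratio is 1.0 by construction. Tac2 and Slc1a3 also had tied values, from Sst-high neurons without a fragment. Neuron 13 stood apart as the highest for Ubn2 (0.833), Gm4825 (0.909) and Tctn3 (1.0). Neuron 9 stood apart as the highest for Calcrl (0.831), Slc1a3 (0.836), Aldh1l1 (1.0) and Dpp10 (1.0), and for the share of fragments in the top 100 genes (0.847), which was 34.3% there. Neuron 4 stood apart as the highest for Tac2 (0.929).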

How the results depend on the processing

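The edgeR count of 0 genes called was also 0 under 33 of 37 alternatives, among them every fit without 1 neuron (lowest 0, highest 0) and, added after seeing the data, the fit without the 7 Sst-low neurons at 10 to 100 FPKM. It was 376 with DESeq2, 206 with DESeq2 without replacement of outlier counts, 5 with limma-voom and 1170 at an adjusted p under 0.1. The cause was not tested. At an adjusted p under 0.05 with no fold limit, 112 genes passed at a limit of 1000 FPKM, 2037 against Sst as a continuous value, 130 without Neuron 9, 475 with DESeq2, 270 with DESeq2 without replacement, 49 with limma-voom and 2 among genes with a fragment in 5 or more neurons. The fit of Type-1 neurons alone had 1 Sst-high neuron, assumed to vary like the others, and the continuous fit applied the fold limit to a slope per log2 unit of Sst, so their 0 says nothing of stability. The type difference of 19.0 points became -3.17 points at a limit of 1000 FPKM and ran from 10.7 to 33.3 points when 1 neuron was left out. When 1 neuron was left out, the difference ran from -3437225 (without Neuron 9, exact p = 0.0911) to -1051703 fragments (without Neuron 14), -1386 to 30.3 genes found, -1.97 to 0.164 points of mitochondrial share, -1.96 to 1.58 points of top-100 share and -0.41 to 0.256 days. At a limit of 10 FPKM the differences were 0.33 for Hcn3, 0.07 for Scn2b, 0.66 for Slc5a7, 0.69 for Zfp202, 0.86 for Arfip2 and -1.01 for Ubn2 (exact p of 0.103 to 0.910), and at 1000 FPKM Slc5a7, Scn2b, Zfp202 and Arfip2 also lost an exact p under 0.05 (0.0956 to 0.132). Penk, Calcrl and Gm4825 changed sign at a limit of 1000 FPKM (0.82, -0.13 and -0.23), and Slc1a3, Aldh1l1 and Adcyap1r1 at a limit of 10 FPKM (0.37, 1.22 and 0.55). No paired analysis was possible because the neurons carry no shared replicate numbers. Only 4 neurons were Sst-high and the limit fell inside a run of similar values, which bounds what any comparison here can show.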
